A study of Rattus norvegicus with 16 samples.

Results

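The genes described here build and run the mitotic spindle, attach chromosomes to it and split the cell. The list of 53 genes was drawn up by function, with earlier results of these data known, and covers mitotic kinases, kinesin motors, kinetochore proteins, spindle assembly factors, the chromosomal passenger complex, condensin, cytokinesis and the switches of mitotic entry and exit. Of the 53, 46 were measured among the 14217 genes tested. Nek2, Kif4a, Ndc80, Tpx2, Ncapg, Anln and Cdc25c had no probe set of their own in the annotation used and were left out. Each gene is represented by 1 probe set, the one with the highest mean over all arrays.

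RNA of cultured primary islets from male Wistar rats, 8 weeks old, was measured on 16 single-colour arrays. Islets were left untreated (5 arrays), received a control adenovirus carrying β-galactosidase (Adβgal, 6 arrays) or were given the same type of virus with the gene of Nkx6.1, a beta cell transcription factor (AdNkx6.1, 5 arrays). All groups were kept in RPMI medium with 8 mM glucose and 10% serum. The viruses were given at a single stated approximate particle concentration for 18 h, and islets were collected 48 h after virus addition. The titles call the arrays biological replicates without saying how animals were pooled, so p-values measure the spread between these samples. The islet is a mixed tissue in which most cells are insulin-producing beta cells, so that in these bulk samples fewer cells of a type and less RNA per cell cannot be told apart.

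Adult beta cells rarely divide. In a dividing cell, mitotic genes are transcribed late in the cycle, after DNA replication, and are held silent in resting cells by the DREAM repressor complex, which sits at a short promoter element called the CHR (cell cycle genes homology region). The activating partners at these promoters are B-Myb and FoxM1, and the trimeric factor NF-Y binds the CCAAT boxes that lie nearby. Once made, Aurora and Polo-like kinases assemble the spindle, the kinetochore joins each chromosome to its microtubules, condensin compacts the chromosomes, and separase releases the sister chromatids.

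The promoter windows of 7 of the genes are printed because they show this shared layout in members that rose, in members that did not pass the test, and in 1 member that has CCAAT boxes with no CHR. The windows run from 250 bases before to 50 bases after the annotated start of each gene and come from RefSeq, build GRCr8, which is not stated to be the build of the array. They are written 5′ to 3′ on the gene's strand, in lower case, with CHR matches (TTTGAA or TTTCGAA) and CCAAT boxes (CCAAT) in capitals, on either strand. The genes were chosen after their values were seen.

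The window of Spc24, a subunit of the Ndc80 complex that grips microtubules at the kinetochore, lies at chr8:28581250-28581549 on the minus strand, and Cdca8 (borealin, of the chromosomal passenger complex) at chr5:142483150-142483449, minus strand. Cks2, a small partner of cyclin-dependent kinases, lies at chr17:13727470-13727769, minus strand, and Mki67, which encodes the Ki-67 protein that coats mitotic chromosomes, at chr1:199952544-199952843, minus strand. Birc5 (survivin) lies at chr10:103571896-103572195, Plk1 at chr1:186147408-186147707 and Smc4, a core ATPase of condensin, at chr2:155550012-155550311, these last on the plus strand.
Spc24: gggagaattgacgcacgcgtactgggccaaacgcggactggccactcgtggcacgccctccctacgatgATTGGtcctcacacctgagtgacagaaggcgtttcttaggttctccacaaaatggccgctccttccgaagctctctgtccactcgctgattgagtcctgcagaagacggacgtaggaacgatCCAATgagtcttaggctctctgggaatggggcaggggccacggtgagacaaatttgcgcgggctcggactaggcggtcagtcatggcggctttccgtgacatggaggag
Cdca8: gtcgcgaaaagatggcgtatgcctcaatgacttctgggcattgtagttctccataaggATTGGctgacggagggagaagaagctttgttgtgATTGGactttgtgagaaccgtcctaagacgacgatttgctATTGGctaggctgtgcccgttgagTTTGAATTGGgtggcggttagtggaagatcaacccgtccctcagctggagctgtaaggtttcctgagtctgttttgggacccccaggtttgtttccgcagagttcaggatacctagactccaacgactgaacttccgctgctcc
Cks2: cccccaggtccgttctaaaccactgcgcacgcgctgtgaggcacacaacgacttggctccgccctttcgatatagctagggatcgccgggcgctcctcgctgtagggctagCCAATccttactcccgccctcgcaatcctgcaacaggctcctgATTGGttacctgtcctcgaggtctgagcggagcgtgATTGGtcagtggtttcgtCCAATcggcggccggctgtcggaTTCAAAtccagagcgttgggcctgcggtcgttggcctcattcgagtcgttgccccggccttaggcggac
Mki67: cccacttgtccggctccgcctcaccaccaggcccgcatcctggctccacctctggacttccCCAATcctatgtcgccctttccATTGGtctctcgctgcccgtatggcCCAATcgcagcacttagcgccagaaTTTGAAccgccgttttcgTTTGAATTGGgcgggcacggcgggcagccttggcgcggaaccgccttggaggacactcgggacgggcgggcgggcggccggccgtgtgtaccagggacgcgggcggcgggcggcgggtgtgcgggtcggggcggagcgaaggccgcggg
Birc5: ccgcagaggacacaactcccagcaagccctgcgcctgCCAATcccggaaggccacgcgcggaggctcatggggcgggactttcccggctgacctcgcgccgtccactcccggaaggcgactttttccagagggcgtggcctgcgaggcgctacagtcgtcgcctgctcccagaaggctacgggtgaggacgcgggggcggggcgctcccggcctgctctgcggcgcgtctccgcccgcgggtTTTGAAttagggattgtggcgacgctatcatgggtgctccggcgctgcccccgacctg
Plk1: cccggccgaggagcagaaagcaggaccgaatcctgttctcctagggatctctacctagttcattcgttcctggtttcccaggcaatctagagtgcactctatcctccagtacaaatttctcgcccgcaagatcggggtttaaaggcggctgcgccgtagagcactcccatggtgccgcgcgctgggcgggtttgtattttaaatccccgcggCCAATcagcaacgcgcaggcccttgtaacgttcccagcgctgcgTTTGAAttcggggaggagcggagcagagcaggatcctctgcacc
Smc4: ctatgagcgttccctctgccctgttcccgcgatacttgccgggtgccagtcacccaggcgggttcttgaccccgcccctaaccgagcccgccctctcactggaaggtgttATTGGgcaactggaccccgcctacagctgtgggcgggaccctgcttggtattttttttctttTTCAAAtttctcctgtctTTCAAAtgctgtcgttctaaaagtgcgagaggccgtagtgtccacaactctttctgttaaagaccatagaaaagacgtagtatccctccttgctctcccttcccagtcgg

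Of the 53 listed genes, 47 had an entry in the promoter table. Aurkb, Pbk, Tpx2, Incenp, Cdca2 and Racgap1 had none. Listed and tested genes were counted by gene, a match in any window of the gene being enough, and the whole table by window. A CHR match was found for 33 of these 47 genes (70.2%). This compares with 19% of the 33469 windows in the table and 14% of the 11733 genes tested on the arrays that had an entry. A CCAAT box was found in 36 (76.6%), against 37.5% of all windows and 38.6% of tested genes. Both were present in 27 (57.4%), against 7.67% and 5.74%. Counted from the start, with the base before it as -1, the median first base of the 39 CHR matches was -29, and 34 of them lay within 100 bases of the start. The 82 CCAAT boxes lay farther out, with a median first base of -102 and 41 within 100 bases. In Mki67 a CHR and a CCAAT box share the base at -94, and in Cdca8 they share the base at -89.

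**Figure D1:**
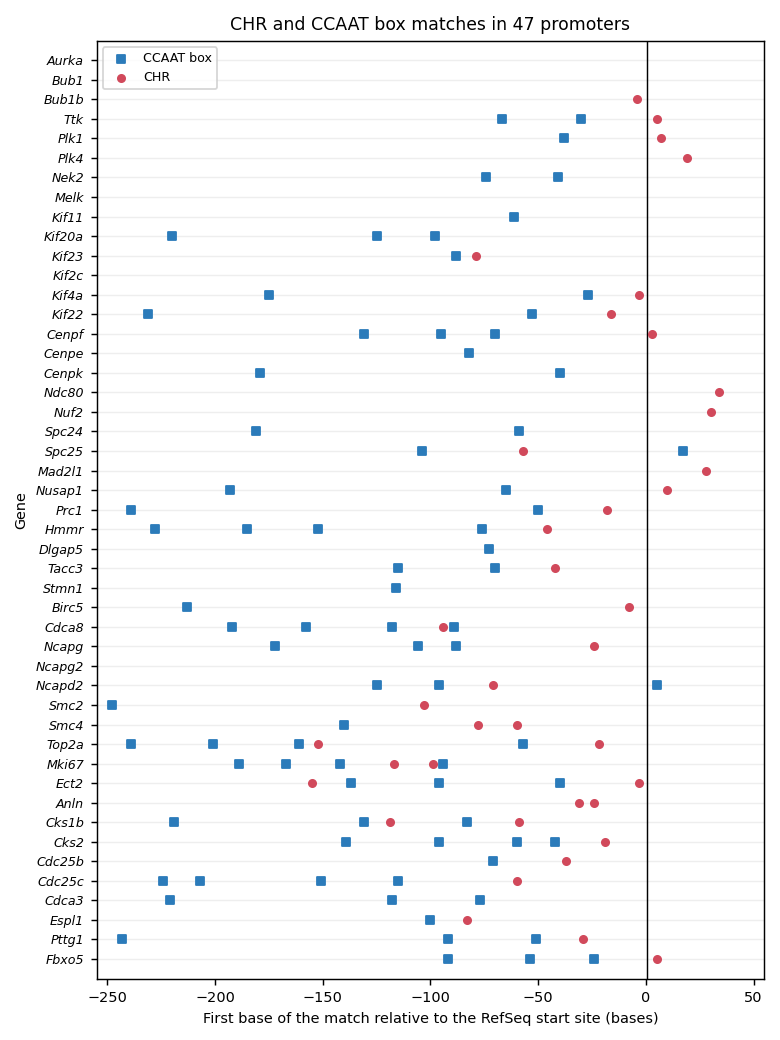
Positions of CHR matches (circles) and CCAAT boxes (squares) in the promoter windows of 47 mitotic genes, by the distance of the first base of the match from the annotated start in bases (x axis), with 1 gene per row. Most CHR matches lie close to the start, 34 of 39 within 100 bases, and the CCAAT boxes mostly lie upstream of them.

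The motifs were also counted by how the genes moved. Among members with an entry, again counted by gene, a CHR match was present in 17 of 25 (68%) that were higher with AdNkx6.1 than with Adβgal. It was present in 11 of 16 measured members (68.8%) that did not pass. For the CCAAT box the counts were 21 of 25 (84%) and 11 of 16 (68.8%). Letters of an E2F site (TTTCGCGC, TTTGGCGC, TTCCCGCC or TTTCCCGC) were found for 3 of the 47 genes (6.38%), against 3.17% of all windows and 5.89% of genes tested on the arrays. The NR4A site AAAGGTCA was in 0 of the 47, against 1.43% of all windows and 1.19% of tested genes. The homeobox core TAATTA was in 1 (Pttg1), which is 2.13% against 5.36% and 2.74% in the same order. All motifs were searched on both strands. A match describes letters in a window, not a bound site, and the absence of a match says only that these letters are not in the window; where an annotated start lies downstream of the true one, the window is not the promoter.

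Values below are log2 intensities, given as mean ± SD, and changes are log2 differences ± standard error (SE) from limma, with p-values adjusted by the Benjamini-Hochberg method over all 14217 genes and a threshold of 0.05. Median intensities of the arrays lay between 264.8 and 296.2. The islet label is borne out by insulin, with Ins1 at 14.75 ± 0.10 and Ins2 at 14.82 ± 0.08 on the untreated arrays (n = 5). Nkx6-1 itself was 11.43 ± 0.17 with AdNkx6.1 (n = 5) and 11.90 ± 0.19 with Adβgal (n = 6), a difference of -0.46 with a limma adjusted p = 0.0023; whether its probe set reads the delivered gene is not given in the sources used here, so it does not check the labels. Adβgal replicates 4, 5 and 6 stood apart: the mean of 13 acinar genes, relative to the untreated mean, was 1.85, 1.21 and 1.32 on them and between -0.78 and 0.57 on the other Adβgal arrays. Key counts are therefore also given without these 3 arrays.

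With AdNkx6.1, 29 of the 46 mitotic genes were higher than with Adβgal and 0 were lower, and 17 did not pass the test. Over all genes tested, 16.6% were called higher and 8.48% lower in this comparison. The median change of the 46 was 0.45, against 0.02 for all genes, and individual changes ran from -0.11 to 1.56. A rise of at least 1.5-fold was called in 16 members, against 7.44% of all genes. All AdNkx6.1 arrays were above all Adβgal arrays in 12 members, against 10.4% of all genes, and below them in 0 members, against 3.78%. At an unadjusted limma p under 0.05, 34 members (73.9%) differed, against 36.2% of all genes. Without Adβgal replicates 4, 5 and 6, 35 of the 46 were higher, 0 were lower and the median change was 0.50, with 18% of all genes called higher. For some members that were not called, changes without certain Adβgal arrays are also given below. The arrays left out are mostly those that read highest for the gene within Adβgal. Leaving such an array out raises the difference by construction, so these values only describe how far 1 array weighs. Of 20 alternatives (19 for Fbxo5), Birc5 and Fbxo5 passed in 1, and Top2a, Kif23, Nuf2 and Smc2 in 2. Plk4, Cenpf and Espl1 passed in 3, and Kif2c and Incenp in 4.

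**Figure D2:**
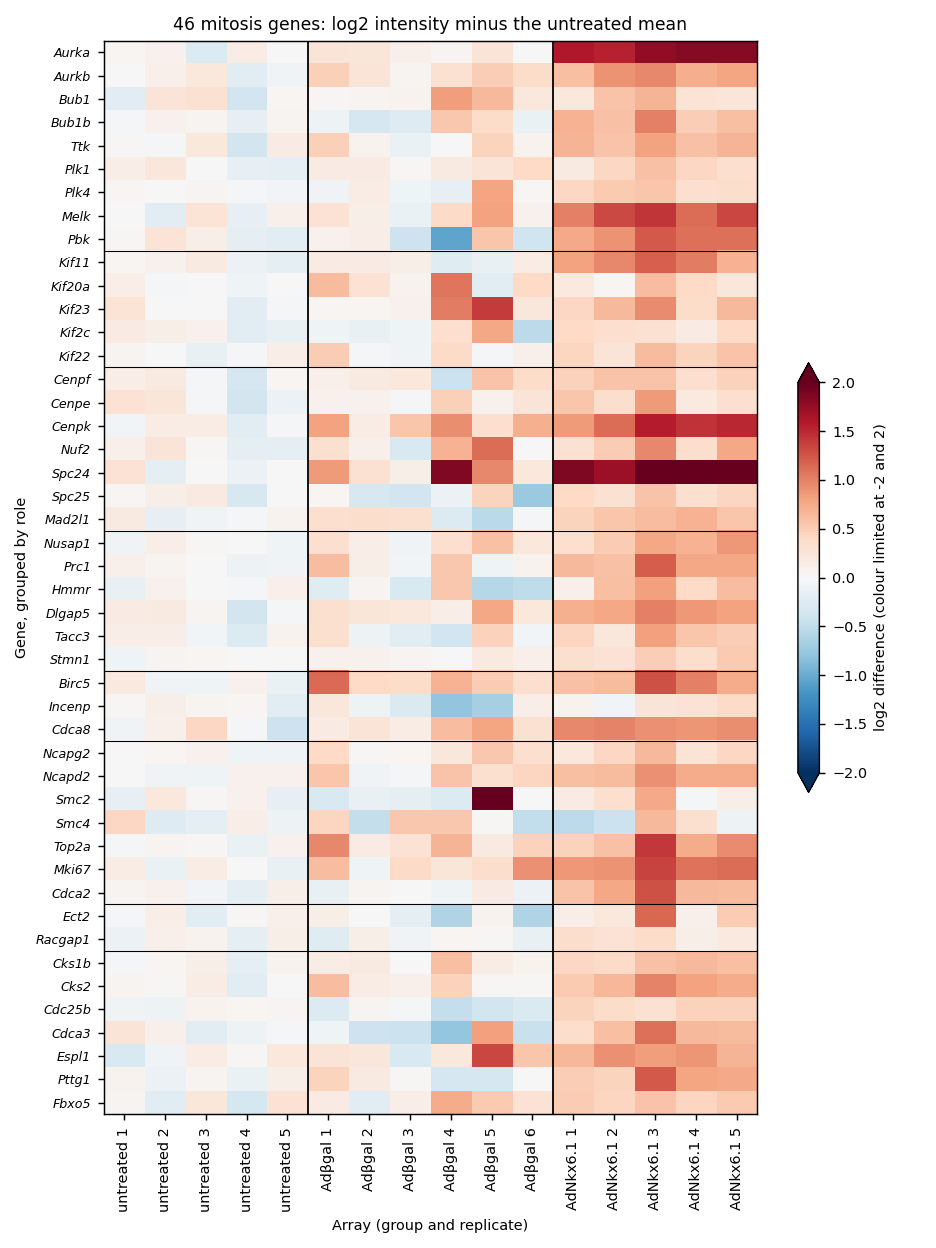
Each of the 46 measured mitotic genes (rows, grouped by role) on each of the 16 arrays (columns), as the log2 difference from that gene's mean on the untreated arrays (colour scale). The AdNkx6.1 columns are higher than the untreated ones across most rows, and AdNkx6.1 replicate 3 is the highest of its group in 35 of the 46 genes.

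Among the kinases, 6 of 9 rose with AdNkx6.1 over Adβgal, and Aurka led them. Aurka, which matures centrosomes and builds the spindle poles, read 7.61, 7.66, 7.30, 7.73 and 7.59 on the untreated arrays and 9.17, 9.12, 9.35, 9.40 and 9.40 with AdNkx6.1, while the 6 Adβgal arrays lay between 7.58 and 7.84 with a median of 7.75. The AdNkx6.1 arrays form a tight group far above both others, which overlap. The rise over Adβgal was 1.56 ± 0.09, 2.94-fold, with a limma adjusted p = 4.1e-09, the largest change of the 46 members. Melk, a kinase of proliferating cells, read 8.44, 8.76, 8.87, 8.55 and 8.77 with AdNkx6.1 against 7.30 to 8.23 (median 7.63) with Adβgal and 7.44, 7.22, 7.71, 7.26 and 7.53 untreated. Again no AdNkx6.1 array overlapped another group, and the rise was 0.99 ± 0.14 (limma adjusted p = 8.8e-05). Aurkb, the kinase of the passenger complex that corrects wrong attachments, read 8.49, 8.78, 8.85, 8.62 and 8.68 with AdNkx6.1, 7.94 to 8.38 (median 8.23) with Adβgal and 7.89, 7.98, 8.09, 7.66 and 7.81 untreated. Its groups followed that order with some overlap of Adβgal and untreated arrays, and AdNkx6.1 was 0.47 ± 0.10 above Adβgal (limma adjusted p = 0.0018).

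Pbk, a mitotic MAP kinase kinase relative, rose 2.29-fold, Bub1b, the checkpoint protein BubR1, 1.58-fold and Ttk (Mps1), which starts the spindle checkpoint, 1.43-fold. Plk1, which drives centrosome maturation and mitotic exit, did not pass the test: it read 8.78, 9.01, 9.20, 9.01 and 8.94 with AdNkx6.1, 8.62 to 9.01 (median 8.78) with Adβgal and 8.74, 8.82, 8.59, 8.44 and 8.43 untreated. The 2 virus groups overlap, with a difference of 0.19 ± 0.09 (limma adjusted p = 0.16). Plk4, the kinase that licenses centriole duplication, differed by 0.33 ± 0.13 (limma adjusted p = 0.082), or by 0.47 without Adβgal replicate 5 (limma adjusted p = 0.00012), and the checkpoint kinase Bub1 by 0.09 ± 0.17 (limma adjusted p = 0.76).

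**Figure D3:**
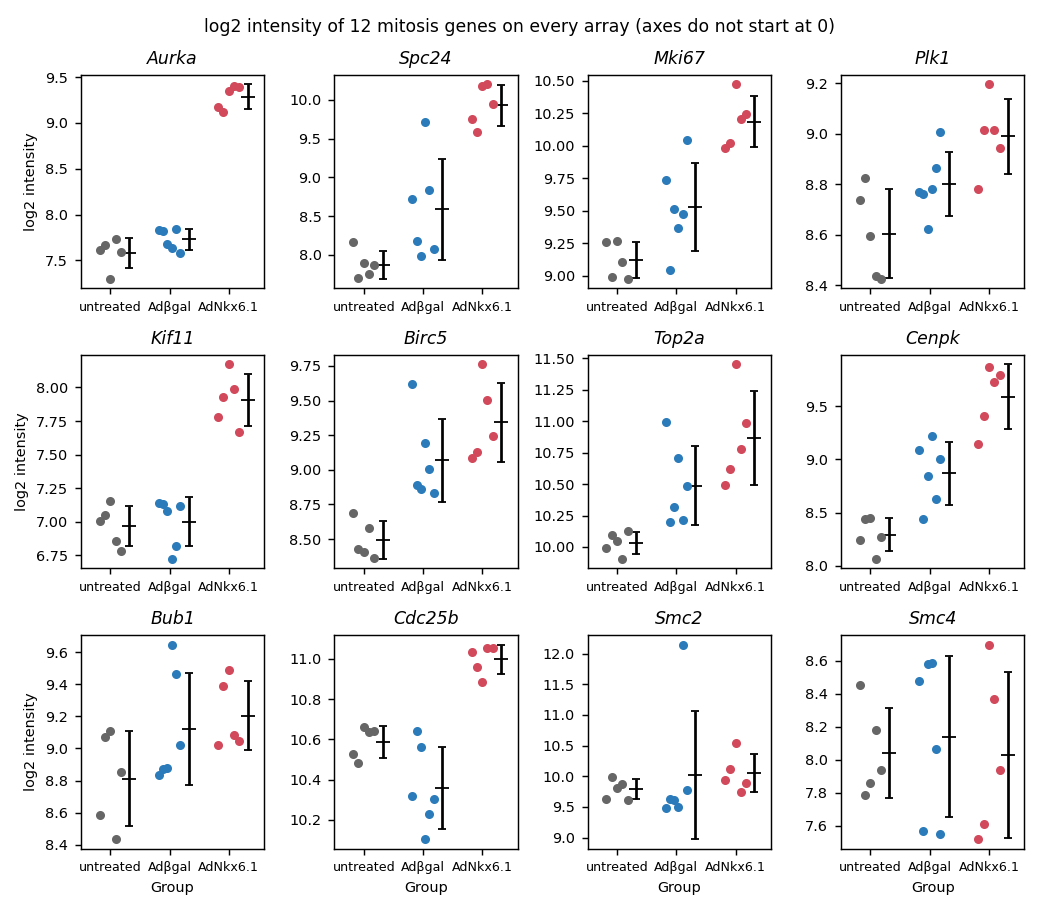
Log2 intensity (y axis) of 12 mitotic genes on every array, by group (x axis), with a point for each array and the group mean ± SD beside the points; the axes do not start at 0. Aurka separates AdNkx6.1 from both other groups, the Adβgal and untreated arrays do not overlap in Birc5 and Top2a, and Smc2 has 1 Adβgal array at 12.15 far above the others.

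Kinesin motors were mixed, with 2 of 5 higher. Kif11 (Eg5), the motor that pushes the spindle poles apart, read 7.78, 7.93, 8.17, 7.99 and 7.67 with AdNkx6.1, 6.72 to 7.14 (median 7.10) with Adβgal and 7.01, 7.05, 7.15, 6.86 and 6.78 untreated. Its AdNkx6.1 arrays lay above all others, at 0.91 ± 0.11 over Adβgal (1.87-fold, limma adjusted p = 1.3e-05). Kif22, a chromokinesin, read 10.54, 10.35, 10.73, 10.54 and 10.68 with AdNkx6.1, 10.03 to 10.60 (median 10.14) with Adβgal and 10.15, 10.09, 9.96, 10.08 and 10.23 untreated. These groups overlap, and its rise of 0.32 ± 0.11 (limma adjusted p = 0.039) lost the call in 13 of 20 alternatives, among them those that left out 1 of AdNkx6.1 replicates 1, 3, 4 and 5, or 1 of the Adβgal arrays 2, 3, 5 and 6 (0.28 to 0.33). Kif20a and Kif23, which act in the central spindle and midbody, differed by -0.08 ± 0.18 (limma adjusted p = 0.78) and 0.14 ± 0.22 (limma adjusted p = 0.71). Without Adβgal replicate 5 the difference of Kif23 was 0.32 (limma adjusted p = 0.19), and without replicates 4, 5 and 6 it was 0.55 (limma adjusted p = 0.0055). The microtubule depolymerase Kif2c differed by 0.28 ± 0.17 (limma adjusted p = 0.25), or by 0.42 without Adβgal replicate 5 (limma adjusted p = 0.021).

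At the kinetochore, 4 of 7 members were higher. Spc24 read 9.75, 9.58, 10.17, 10.20 and 9.94 with AdNkx6.1, 7.99 to 9.72 (median 8.45) with Adβgal and 8.16, 7.70, 7.89, 7.75 and 7.87 untreated. All but 1 Adβgal array, replicate 4, lay well below the AdNkx6.1 arrays, and the rise was 1.34 ± 0.25 (2.54-fold, limma adjusted p = 0.00078). Cenpk, a subunit of the centromere-bound network under the outer kinetochore, read 9.14, 9.40, 9.87, 9.73 and 9.80 with AdNkx6.1, 8.44 to 9.22 (median 8.93) with Adβgal and 8.24, 8.44, 8.44, 8.07 and 8.27 untreated. It stepped up between each pair of groups with some overlap, by 0.72 ± 0.15 with AdNkx6.1 over Adβgal (limma adjusted p = 0.0022). Of the Ndc80 complex, Spc25 rose by 0.59 ± 0.16 (limma adjusted p = 0.013) as well, while Nuf2 differed by 0.26 ± 0.21 (limma adjusted p = 0.40), 0.42 without Adβgal replicate 5 (limma adjusted p = 0.081) and 0.54 without replicates 4, 5 and 6 (limma adjusted p = 0.030). Mad2l1, the checkpoint protein Mad2, rose by 0.55 ± 0.14 (limma adjusted p = 0.0098). The large kinetochore proteins Cenpe and Cenpf differed by 0.31 ± 0.14 each (limma adjusted p = 0.11 and 0.12); Cenpf passed without Adβgal replicate 5 (0.39, limma adjusted p = 0.037).

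All 6 measured spindle assembly and microtubule genes were higher. Stmn1, stathmin, which destabilises microtubules until it is phosphorylated in mitosis, read 12.50, 12.47, 12.66, 12.53 and 12.70 with AdNkx6.1, 12.18 to 12.38 (median 12.26) with Adβgal and 12.09, 12.24, 12.22, 12.17 and 12.17 untreated. The AdNkx6.1 arrays lay just above all others, by 0.31 ± 0.06 over Adβgal (limma adjusted p = 0.0014). Prc1, the bundler of the central spindle, read 10.65, 10.58, 11.22, 10.78 and 10.78 with AdNkx6.1, 9.92 to 10.62 (median 10.10) with Adβgal and 10.11, 10.07, 10.02, 9.90 and 9.94 untreated. Its groups overlapped by a narrow margin, at a rise of 0.60 ± 0.14 (limma adjusted p = 0.0040). Hmmr (0.68), Dlgap5 (0.52), Tacc3 (0.50) and Nusap1 (0.38), which organise or stabilise spindle microtubules, rose as well. The call for Tacc3 was lost without AdNkx6.1 replicate 3 (0.42, limma adjusted p = 0.051) and that for Nusap1 without AdNkx6.1 replicate 5 (0.32, limma adjusted p = 0.061).

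Of the 3 passenger complex genes measured besides Aurkb, 1 passed the test, Cdca8. It read 9.05, 9.08, 9.01, 8.97 and 9.03 with AdNkx6.1, 8.24 to 8.87 (median 8.37) with Adβgal and 8.02, 8.19, 8.51, 8.07 and 7.67 untreated. Its AdNkx6.1 arrays lay above all Adβgal arrays and close to each other, at 0.56 ± 0.14 (limma adjusted p = 0.0059). Incenp, the scaffold of the complex, read 7.45, 7.32, 7.63, 7.66 and 7.75 with AdNkx6.1, 6.58 to 7.61 (median 7.18) with Adβgal and 7.39, 7.49, 7.42, 7.42 and 7.15 untreated. All groups overlap, and the difference of 0.44 ± 0.16 did not pass (limma adjusted p = 0.061), although it did without Adβgal replicate 1 (0.53, limma adjusted p = 0.018) or replicate 6 (0.51, limma adjusted p = 0.032). Birc5, which guides the complex to the centromere, read 9.08, 9.13, 9.76, 9.50 and 9.24 with AdNkx6.1, 8.84 to 9.62 (median 8.95) with Adβgal and 8.69, 8.43, 8.40, 8.58 and 8.37 untreated. Here the virus groups overlap and the untreated arrays lie below both, with 0.28 ± 0.15 between the viruses (limma adjusted p = 0.19). Birc5 passed in 1 of 20 alternatives, without Adβgal replicate 1 (0.39, limma adjusted p = 0.032).

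Of the condensin and chromosome genes, 3 of 7 were higher. Cdca2 (Repo-Man), which brings a phosphatase to chromosomes at mitotic exit, read 6.97, 7.18, 7.68, 7.05 and 7.03 with AdNkx6.1, 6.25 to 6.56 (median 6.36) with Adβgal and 6.47, 6.49, 6.34, 6.20 and 6.52 untreated. The AdNkx6.1 arrays lay above all others, by 0.80 ± 0.11 over Adβgal (limma adjusted p = 7.2e-05). Mki67 read 9.98, 10.02, 10.47, 10.21 and 10.24 with AdNkx6.1, 9.04 to 10.04 (median 9.49) with Adβgal and 9.26, 8.99, 9.26, 9.10 and 8.98 untreated. One Adβgal array, replicate 6, reached into the AdNkx6.1 range, and the rise was 0.66 ± 0.14 (1.58-fold, limma adjusted p = 0.0028). Top2a, the topoisomerase that untangles sister chromatids, read 10.50, 10.62, 11.45, 10.78 and 10.98 with AdNkx6.1, 10.20 to 10.99 (median 10.40) with Adβgal and 9.99, 10.09, 10.05, 9.91 and 10.13 untreated. The virus groups overlap and both lie above the untreated arrays, with 0.38 ± 0.16 between the viruses (limma adjusted p = 0.11). Top2a passed in 2 of 20 alternatives, among them that without Adβgal replicate 1 (0.48, limma adjusted p = 0.03).

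Condensin subunits were called in part. Ncapd2, of condensin I, rose by 0.43 ± 0.12 (limma adjusted p = 0.011), whereas Ncapg2, of condensin II, differed by 0.13 ± 0.10 (limma adjusted p = 0.37). The ATPases shared by both condensins, Smc2 and Smc4, differed by 0.03 ± 0.37 (limma adjusted p = 0.97) and -0.11 ± 0.24 (limma adjusted p = 0.79). For Smc2 the Adβgal arrays lay between 9.48 and 9.77 apart from replicate 5 at 12.15, and the AdNkx6.1 arrays read 9.94, 10.12, 10.55, 9.74 and 9.90. Without that Adβgal array Smc2 was higher with AdNkx6.1 by 0.45 (limma adjusted p = 0.016). Smc4, whose promoter window is printed above with 2 CHR matches, had SDs of 0.49 and 0.50 in the virus groups and no call in this comparison.

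Both measured cytokinesis genes were higher. Racgap1, a subunit of centralspindlin, read 10.64, 10.58, 10.66, 10.41 and 10.50 with AdNkx6.1, 10.06 to 10.41 (median 10.27) with Adβgal and 10.18, 10.40, 10.37, 10.12 and 10.41 untreated. The virus groups touch at 10.41, at a rise of 0.31 ± 0.08 (limma adjusted p = 0.010), and another, dimmer probe set of Racgap1 differed by -0.02 ± 0.18; with the mean of both the change was 0.15 (limma adjusted p = 0.38). Ect2, the exchange factor that activates RhoA at the cleavage site, read 9.43, 9.50, 10.45, 9.39 and 9.81 with AdNkx6.1, 8.69 to 9.41 (median 9.20) with Adβgal and 9.26, 9.43, 9.06, 9.32 and 9.40 untreated. AdNkx6.1 replicate 3 stood highest, and replicates 2 and 5 also lay above all Adβgal and untreated arrays. Replicate 4 lay within the range of both other groups, and replicate 1 was level with the highest untreated array. The rise was 0.62 ± 0.19 (limma adjusted p = 0.021), and the call was lost without AdNkx6.1 replicate 5 (0.60, limma adjusted p = 0.051) and without Adβgal replicates 4, 5 and 6 (0.44, limma adjusted p = 0.12).

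Among entry and exit regulators, 5 of 7 were higher. Cdc25b, the phosphatase that first activates cyclin-dependent kinase at entry, read 11.03, 10.96, 10.89, 11.05 and 11.06 with AdNkx6.1, 10.11 to 10.64 (median 10.31) with Adβgal and 10.53, 10.48, 10.66, 10.64 and 10.64 untreated. AdNkx6.1 arrays lay above all others, while the Adβgal arrays tended below the untreated ones, and the rise over Adβgal was 0.64 ± 0.09 (limma adjusted p = 5.9e-05). Pttg1, securin, which holds separase inactive until anaphase, read 9.83, 9.80, 10.57, 10.13 and 10.10 with AdNkx6.1, 9.01 to 9.80 (median 9.36) with Adβgal and 9.42, 9.23, 9.41, 9.22 and 9.47 untreated. Its groups touch at their ends, at a rise of 0.74 ± 0.15 (limma adjusted p = 0.0017). Cdca3, a trigger of Wee1 degradation, rose 1.85-fold, and the kinase partners Cks2 and Cks1b rose 1.42-fold and 1.26-fold. The call for Cks1b was lost without AdNkx6.1 replicate 4 (0.30, limma adjusted p = 0.061) or replicate 5 (0.31, limma adjusted p = 0.057). Separase, Espl1, differed by 0.41 ± 0.20 (limma adjusted p = 0.16), or by 0.60 without Adβgal replicate 5 (limma adjusted p = 0.0034), and Fbxo5 (Emi1), an inhibitor of the anaphase promoting complex, by 0.22 ± 0.15 (limma adjusted p = 0.31), or by 0.47 without Adβgal replicates 4, 5 and 6 (limma adjusted p = 0.022). Fbxo5 was dim, with a mean of 4.68 over all arrays, and only 9.85% of genes tested had a lower mean.

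**Figure D4:**
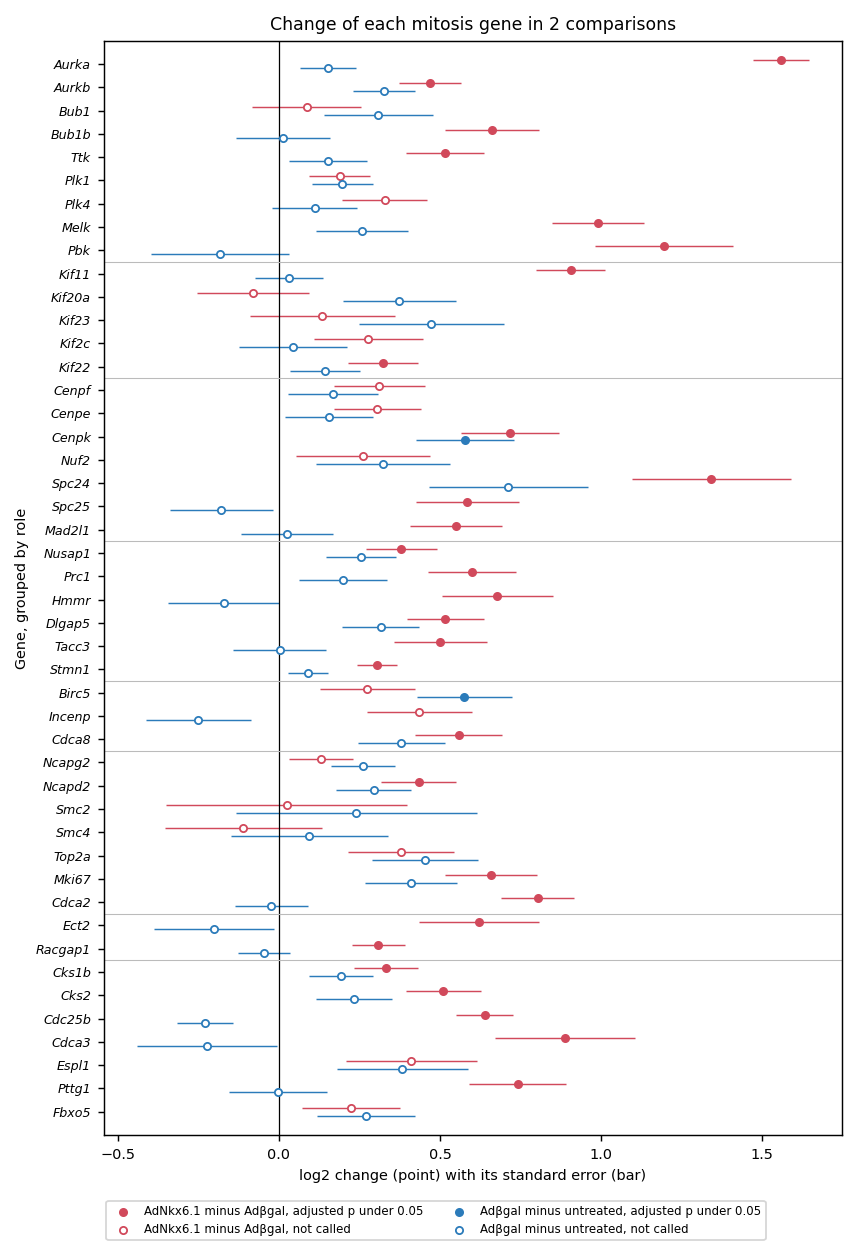
Log2 change (x axis, point) with its standard error (bar) for each of the 46 mitotic genes (y axis, grouped by role) in AdNkx6.1 minus Adβgal and in Adβgal minus untreated, which share the Adβgal arrays; filled points passed an adjusted p of 0.05. Aurka, at 1.56, stands farthest right, and 29 points of the first comparison are filled against 2 of the second.

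Few of these genes passed the test for the control virus. Against untreated islets, 2 of 46 were higher with Adβgal (Cenpk and Birc5) and 0 lower, against 2.84% and 4.17% of all genes, and the median change was 0.18 against -0.04 for all genes. At an unadjusted limma p under 0.05, 13 members (28.3%) differed, against 24.9% of all genes. Cenpk was higher by 0.58 ± 0.15 (limma adjusted p = 0.031) and Birc5 by 0.58 ± 0.15 (limma adjusted p = 0.028). In Birc5 and Top2a, 2 of 46, every Adβgal array lay above every untreated array, against 2.05% of all genes (0 members and 4.83% of genes for the reverse), and Top2a differed by 0.45 ± 0.16 (limma adjusted p = 0.099). Spc24 differed by 0.71 ± 0.25 (limma adjusted p = 0.089), Mki67 by 0.41 ± 0.14 (limma adjusted p = 0.091) and Aurkb by 0.33 ± 0.10 (limma adjusted p = 0.053). Without Adβgal replicates 4, 5 and 6, 1 member was higher, against 1.72% of all genes, and Birc5 (0.63, limma adjusted p = 0.072) and Cenpk (0.50, limma adjusted p = 0.12) both missed the threshold. Without untreated replicate 2, 4 or 5, no member was called higher in this limma comparison, and without Adβgal replicate 2 there were 5. In the same order, 1.6%, 1.49%, 1.5% and 4.14% of all genes were called higher.

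Set against untreated islets, AdNkx6.1 islets had 36 of 46 mitotic genes higher and 0 lower, against 16.9% and 13.8% of all genes, or 30.7% in either direction. At an unadjusted limma p under 0.05, 41 members (89.1%) differed, against 40.2% of all genes. This comparison shares its AdNkx6.1 arrays with the first and its untreated arrays with the second. The median change was 0.60, against -0.01 for all genes, 22 members rose at least 1.5-fold (8.6% of all genes), and in 36 the AdNkx6.1 arrays all lay above the untreated ones (17.4% of all genes). Spc24 rose most, by 2.05 ± 0.26 (4.15-fold, limma adjusted p = 2.0e-05), followed by Aurka at 1.71 ± 0.09 (limma adjusted p = 2.6e-09), Cenpk at 1.30 ± 0.16 (limma adjusted p = 1.5e-05) and Melk at 1.25 ± 0.15 (limma adjusted p = 1.2e-05). Mki67 rose 2.09-fold, Birc5 1.80-fold, Top2a 1.78-fold and Plk1 1.31-fold (limma adjusted p = 0.0069). By role, 8 of 9 kinases, 2 of 5 kinesins, 5 of 7 kinetochore genes, all 6 spindle genes, 2 of 3 passenger genes, 5 of 7 condensin and chromosome genes, 1 of 2 cytokinesis genes and all 7 entry and exit genes were higher. The members that did not pass were Bub1, Kif20a, Kif23, Kif2c, Nuf2, Spc25, Incenp, Smc2, Smc4 and Ect2. Calls for Cdca3, Cenpe, Cenpf, Fbxo5, Hmmr, Racgap1 and Tacc3 were each lost on leaving out untreated replicate 4, with 29 members higher (14.4% of all genes). Without AdNkx6.1 replicate 3 the calls lost were those of Cdca3, Cenpe, Fbxo5, Hmmr, Plk4 and Racgap1, with 30 members higher (16.7% of all genes). Several of these calls were lost in other alternatives too. Of 18 alternatives, Hmmr passed in 6, Cdca3 in 8, Racgap1 in 10 and Cenpe in 12, and the dim gene Fbxo5 passed in 12 of 17.

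The level of the whole set varied within groups. The mean of the 46 genes relative to the untreated mean lay between -0.12 and 0.05 on untreated arrays, between -0.001 and 0.38 with Adβgal and between 0.52 and 0.91 with AdNkx6.1, so the AdNkx6.1 arrays do not overlap the others on this mean. AdNkx6.1 replicate 3 was the highest of its group in 35 of 46 members and replicate 1 the lowest in 21. Adβgal replicate 5 was the highest of its group in 20 members, and untreated replicate 4 the lowest in 23. The median SD of the 46 members was 0.15 untreated, 0.32 with Adβgal and 0.18 with AdNkx6.1, against 0.12, 0.23 and 0.15 for all genes.

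Other genes of mitosis outside the 53 followed in part. Over all genes tested, 16.6% were called higher with AdNkx6.1 than with Adβgal and 8.48% lower. Of 30 other kinetochore and centromere genes measured, 10 were higher with AdNkx6.1 than with Adβgal and 0 lower, among them Cenpm (1.48 ± 0.16, limma adjusted p = 3.7e-06) and Kntc1 (0.92 ± 0.07, limma adjusted p = 2.6e-07). Of 30 other spindle, centrosome and cytokinesis genes, 13 were higher, among them Tubg1, γ-tubulin (0.89 ± 0.08, limma adjusted p = 4.7e-07), and 2 lower, the centriole genes Cep152 (-0.74 ± 0.15, limma adjusted p = 0.0015) and Cenpj (-0.34 ± 0.12, limma adjusted p = 0.046). Of 16 cohesin, separase control and other condensin genes, 6 were higher, among them the cohesin acetyltransferase Esco2 (1.18 ± 0.21, limma adjusted p = 0.00049) and the condensin I subunit Ncaph (0.83 ± 0.17, limma adjusted p = 0.0018), and 1 lower, the core cohesin gene Smc1a (-0.45 ± 0.13, limma adjusted p = 0.019). Of 22 genes of the entry switch and its transcription factors, 11 were higher and 0 lower. These included Mybl2, which encodes B-Myb (1.02 ± 0.14, limma adjusted p = 4.6e-05), E2f8 (1.72 ± 0.26, limma adjusted p = 0.00013) and the cyclin F gene Ccnf (1.31 ± 0.17, limma adjusted p = 3.3e-05). Foxm1, named here although outside the fixed naming rule because its factor acts at these promoters, differed by 0.08 ± 0.13 (limma adjusted p = 0.68). The median changes of the 4 lists were 0.33, 0.34, 0.09 and 0.42, against 0.02 for all genes. Without Adβgal replicates 4, 5 and 6 they were 0.39, 0.36, -0.004 and 0.38, with 14, 14, 6 and 11 genes higher and 0, 1, 1 and 0 lower. Of all 14217 genes, 2554 were then higher and 1474 lower.

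Markers of some other cell types differed between the groups too. Over all genes tested, 16.6% were called higher and 8.48% lower with AdNkx6.1 than with Adβgal. The mean of 8 duct genes, relative to untreated, was 0.24 to 0.53 with AdNkx6.1 and -0.19 to 0.41 with Adβgal. Their summed intensity was 56333 to 62419 with AdNkx6.1, against 40306 to 48853 with Adβgal and 40344 to 45270 untreated. This sum weighs the brightest genes most. Of the 8, 4 were higher, among them Krt8 (0.57 ± 0.06, limma adjusted p = 1.8e-06). Changes of the list ran from -0.57 to 0.89, and 6 of the 8 were above 0. Of 7 beta cell genes 2 were lower, Pdx1 (-0.31 ± 0.10, limma adjusted p = 0.027) and Nkx6-1, whose probe set is discussed above. Changes of this list ran from -0.46 to 0.007, and 1 of the 7 was above 0. Ins1 (-0.022) and Ins2 (0.007), named although outside the naming rule and among the brightest of all genes, were not called. The beta cell mean was -0.41 to -0.30 with AdNkx6.1 and -0.21 to -0.11 with Adβgal (summed intensity 93589 to 110262 against 104453 to 113304). Of 8 markers of other islet endocrine cells 5 were lower (summed intensity 70176 to 84755 against 83102 to 94825). The 13 acinar genes (0 higher, 3 lower; summed intensity 21096 to 48749 against 19381 to 87509) and 10 macrophage and leukocyte genes (0 higher, 1 lower; 5753 to 8473 against 6817 to 13358) were high on Adβgal replicates 4, 5 and 6. Of 9 endothelial genes 0 were called (8345 to 17018 against 4738 to 25525), at an unadjusted limma p under 0.05 also 0, and of 11 stellate and fibroblast genes 0 were higher and 2 lower (49855 to 54731 against 46381 to 55965). Leaving these 3 vector control arrays (4, 5 and 6) out gave 5 of 8 duct genes higher, 2 of 7 beta cell and 4 of 8 other endocrine genes lower, 1 of 13 acinar genes lower (median change -0.09, against -1.09 with all arrays), and 0 called in the macrophage and leukocyte, endothelial and stellate lists. Over all 14217 genes, 2554 were then higher and 1474 lower. No marker had an intensity of 0, which this scale does not reach. The part of these shifts in the mitotic gene changes was not tested.

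**Figure D5:**
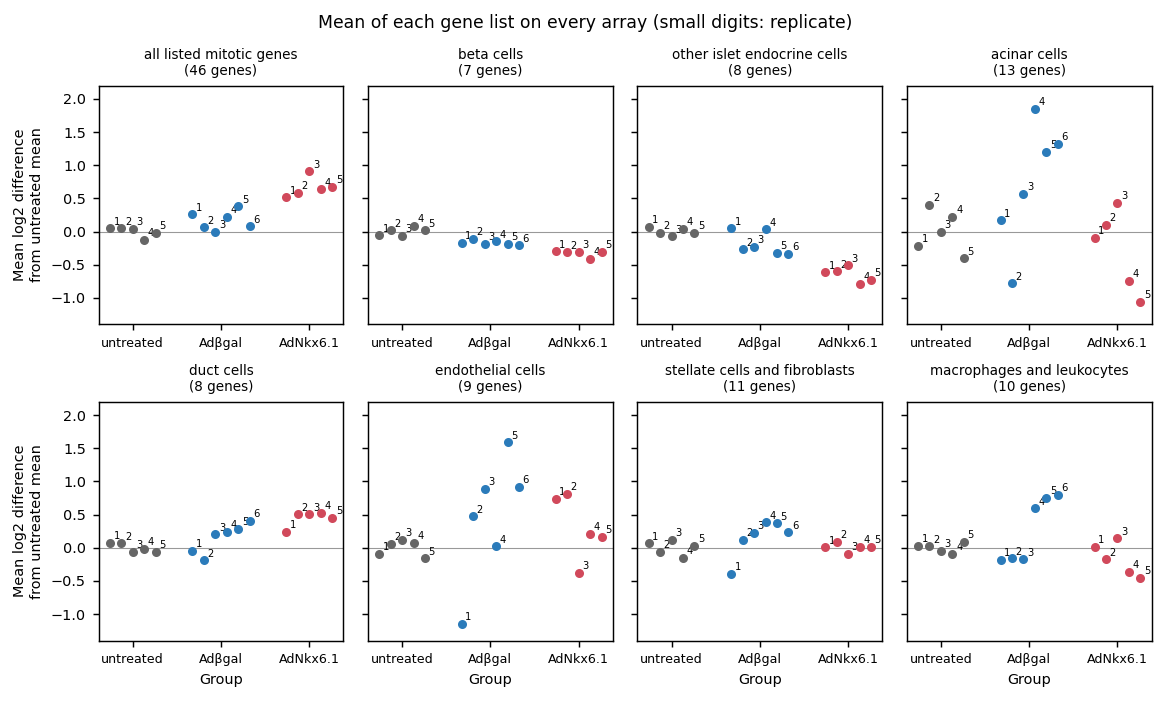
Mean log2 difference from the untreated mean (y axis) of the 46 mitotic genes and of 7 lists of cell type markers on every array, by group (x axis); each point is an array and the small digit its replicate number. The mitotic genes lie highest with AdNkx6.1, at 0.52 to 0.91, while the acinar list peaks on Adβgal replicate 4 at 1.85.

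Some members were read by further probe sets. Of the 46 members, 32 have 1 probe set and 14 have more, which adds 16. Adjusted over all 20826 single-gene probe sets, 6 of these 16 were higher with AdNkx6.1 than with Adβgal, 0 were lower and 10 were not called. The share of all probe sets called was not counted, and over the 14217 genes 16.6% were higher. The sign of the probe set used was shared by 15, and Racgap1 was the exception. The other probe sets of Kif11, Nusap1, Cdca2 and Cks1b passed. Those of Ttk, Mad2l1, Hmmr and Tacc3, called on the probe set used, did not (limma adjusted p = 0.088 to 0.57). Incenp, which missed the threshold on the probe set used, had 2 others that passed (0.62 ± 0.20 and 0.38 ± 0.13, limma adjusted p = 0.039 and 0.045 over all probe sets).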

How the data were processed

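Per the submitters' processing notes the arrays were summarised with RMA, which corrects background, normalises between arrays and combines probes; its version is not given in the sources used here. The authors deposited linear intensity values (6.25 to 35765), and detection calls were not used here. No step after RMA is stated. Because log2 values had been expected, the deposited intensities were log2-transformed with no pseudocount. The number of arrays limits the precision. The labels state 5 replicates for each condition; 6 Adβgal arrays were given and used.

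Of 31099 probe sets, 57 controls were left out; the platform annotation gives a single gene symbol for 20826 of the remaining 31042, several symbols for 436 and no symbol for 9780. The probe set of highest mean over 16 arrays stood for each gene, giving 14217 genes. Of the 20758 gene IDs matched to the symbol table, 0 changed a symbol. limma 3.58.1 in R 4.3.3 fitted the 3 groups together (lmFit, contrasts.fit, eBayes; 2-sided), with Benjamini-Hochberg adjustment over all genes and a threshold of 0.05; the script was tested on simulated data. Tables used pandas 2.3.3 in Python 3.11.15 and figures matplotlib 3.10.9. Motifs were counted in RefSeq promoter windows of build GRCr8.

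The members, the 8 role groups, the 4 lists of other mitotic genes and the 7 cell type lists were chosen with earlier results of these data known. By the naming rule, any listed gene could be named; values by array (for the 6 Adβgal arrays the lowest, median and highest) are given for the 2 members of smallest p in each role group in AdNkx6.1 against Adβgal, for members called with Adβgal against untreated, and for Mki67, Plk1, Aurkb and Top2a. Of each other list of mitosis up to 5 genes, and of each cell type list up to 3, could be named. Alternatives changed the probe set rule, the scaling, the dim genes, the groups fitted, the variance model and the arrays.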

Additional observations from a re-analysis of the deposited data

Results flagged for a closer look

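Values that stood apart from their group were found in 5 of 138 groups of 5 or 6 arrays checked (46 genes in 3 groups); chance flags about 1 in 20 groups. On Adβgal replicate 5, Smc2 read 12.15 against 9.48 to 9.77 on the other Adβgal arrays, Plk4 10.16 against 9.21 to 9.52, and Dlgap5 9.0 against 8.36 to 8.55. On Adβgal replicate 4, Cks1b read 10.78 against 10.18 to 10.35. On untreated replicate 5, Incenp read 7.15 against 7.39 to 7.49. Of the 5, 4 are from Adβgal arrays, and 0 from AdNkx6.1 arrays.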

How the results depend on the processing

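For AdNkx6.1 against Adβgal, 20 of the 29 called members kept the call in all 20 alternatives, and for AdNkx6.1 against untreated 26 of 36 in all 18. Cdca2, counted in both, was fitted in only 19 and 17 of them, because it was left out with the dim genes. Calls lost in the first comparison were those of Cks1b, Ect2, Kif22, Nusap1 and Tacc3, of Mad2l1 (0.41, adjusted p = 0.087) and Ncapd2 (0.36, adjusted p = 0.057) after a second quantile normalisation, and of Racgap1 and Ttk (0.47, adjusted p = 0.051) with the mean of all probe sets; 0 called members changed sign in either. The count of members higher with AdNkx6.1 than with Adβgal was 23 after a second quantile normalisation, 26 with each array centred on its median, 37 with array weights, and 25 to 33 with 1 array left out. In the same order, 14.6%, 13.3%, 21.5% and 13.6% to 18.5% of all genes were called higher, against 16.6% as reported. In Adβgal against untreated the count of members higher, 2 as reported, was 1 with arrays centred on their medians, 0 after a second quantile normalisation, 0 with the replicate number as a block, 1 without Adβgal replicates 4, 5 and 6, and 0 to 5 with 1 array left out. In the same order, 2.88%, 3.01%, 1.07%, 1.72% and 1.49% to 4.14% of all genes were called higher, against 2.84% as reported. Members lower numbered 0 to 1 with 1 array left out. The replicate numbers did not pair the arrays: correlations of same-numbered deviations ran from -0.387 to -0.032 for AdNkx6.1 with Adβgal, -0.221 to 0.132 for Adβgal with untreated and -0.193 to 0.249 for AdNkx6.1 with untreated. With the replicate number as a block 26 members were higher in AdNkx6.1 against Adβgal (13.7% of all genes) and 33 in AdNkx6.1 against untreated (14.9% of all genes). Called genes in all numbered 521 in Adβgal against untreated (997 as reported) with only those groups fitted, 1790 with array weights, 393 with the block, 552 without Adβgal replicates 4, 5 and 6, and 509 to 1503 with 1 array left out; in AdNkx6.1 against untreated they numbered 7469 with array weights (4360 as reported). Changes of sign, all among members with no call: in AdNkx6.1 against Adβgal, Smc2 with centring (-0.0379), quantile normalisation (-0.0604), the block (-0.0255) and 1 array left out (-0.099 to 0.45), and with 1 array left out Kif20a (-0.199 to 0.0604) and Smc4 (-0.278 to 0.0159); in AdNkx6.1 against untreated, Incenp with quantile normalisation (-0.0117) and Smc4 with 1 array left out (-0.182 to 0.111). The cause was not tested.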
